A study of Mus musculus with 5 samples.

Results

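Mediator is the large protein complex that carries signals from transcription factors bound at enhancers to RNA polymerase II at promoters. The transcripts of its subunits were followed here in male germ cells of the mouse. Members were all genes whose symbol in the deposited table is Med followed by a number, together with Cdk8, Cdk19 and Ccnc. They came to 31 of the 56324 rows, and all 31 reached the minimum for the test, a 5-sample mean of 10, as did 28370 rows in all. A further 2 rows, in which Med12 is joined with Nlgn3 and Med20 with Usp49, were left out because their reads cannot be assigned to one gene. Polyadenylated RNA was sequenced from spermatocytes (2 samples), which are the germ cells undergoing meiosis, and from spermatids (3 samples), the haploid products of meiosis, both from C57Bl/6 males aged 12 weeks and purified by sedimentation at unit gravity. No mutation or drug treatment is given in the labels for either group. The series concerns intron retention, but the table holds 1 value per gene, so only gene levels could be compared, and the labels do not say whether samples came from separate animals, so that p-values measure the spread between these samples only.

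Mediator is built from a head and a middle, which contact the polymerase, and a tail, which receives most activators. Med14 runs through the complex as its backbone and joins these parts. Med27, Med28, Med29 and Med30 sit where the head meets the tail and have been placed with either. A separable kinase module of a cyclin-dependent kinase (Cdk8 or its paralog Cdk19), cyclin C, Med12 and Med13 binds reversibly and modulates the contact with the polymerase. During spermatogenesis the genome is transcribed heavily in pachytene spermatocytes and again in round spermatids, before the chromatin of the elongating spermatid is compacted and transcription stops.

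The total of each library, in units of the smallest value in its column, ran from 52784231 to 84361908. The cell type labels were checked with marker genes. All 9 spermatid markers were higher in spermatids, and 6 of 9 spermatocyte markers were lower and 1 was higher. The spermatocyte markers stood in spermatocytes at a median of 317% of their spermatid level (range 19.7% for Pgk2 to 5883% for Pou5f2). Their summed value was 186253 and 169071 in spermatocytes and 186787, 129541 and 121475 in spermatids. Pgk2, the marker that was higher in spermatids, gave 145018, 96186.5 and 88836.6 of the spermatid sums. The part of spermatocyte RNA in the spermatid values was not tested. The spermatid markers stood in spermatocytes at a median of 1.45% of their spermatid level (range 1.27% to 2.0%), and their summed value was 1975210 in spermatid replicate 1 against 706529 and 681855 in replicates 2 and 3. All of them but Spaca1 and Acrv1 were highest in replicate 1, such as Prm2 (583221 against 140587 and 140411). Spaca1 had 24594 against 27604 and 22896, and Acrv1 had 27002 against 30144 and 26452. Markers of Sertoli cells, the nurse cells of the tubule, were lower in spermatids for 10 of 10 genes. Their summed normalized count was 50763 and 66694 in the spermatocyte samples and 1128 to 1658 in spermatids, and none was at 0. Of 6 listed markers of Leydig cells, 5 matched a single row, and all 5 were lower in spermatids. Their sums were 2237 and 2761 in spermatocytes against 103.9 to 280.9 in spermatids. Of 12 listed markers of myoid, endothelial, macrophage and blood cells, 11 matched a single row. Of these 11, 6 were higher and 1 was lower, with sums of 489 to 584 against 1699 to 2533. Spermatogonial markers were higher for 3 of 8 and lower for 1, with sums of 1416 and 1649 against 1854 to 2476. Several of these lists moved with the subunits described here, and their part in those differences was not tested.

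The subunits did not move as one block. Of the 31 members, 12 were higher in spermatids (38.7%), 12 were lower (38.7%) and 7 did not pass the test, so that 77.4% were called (limma, Benjamini-Hochberg adjusted p under 0.05 over all rows). Over all rows tested, 40.6% were higher, 36.5% were lower and 77.1% were called either way, so the shares of the complex as a whole are near the background. A change of 2-fold or more was seen in 6 members toward spermatids (19.4%) and in 7 toward spermatocytes (22.6%), against 33.2% and 28.7% of all rows. The members' fold changes ran from -2.85 for Med11 to 4.11 for Med14 on the log2(value + 1) scale, with a median of 0.12 against 0.07 for all rows. The values of the cell types did not overlap for 28 of the 31 (15 higher and 13 lower in spermatids), and for 85.8% of all rows (44.3% higher and 41.5% lower). In these bulk samples, fewer cells of a type and less RNA per cell cannot be told apart. Directions are relative to the authors' scaling: with equal library totals the median of all rows moved from 0.07 to -0.57 and the members' counts became 6 higher and 17 lower, and quantile normalization gave the same 6 and 17 with a median of -0.42 for all rows. The background was then 30.5% higher and 49.4% lower with equal totals, and 32.9% and 46.9% with quantile normalization. Direction and call held under all 13 alternatives for 16 members, 6 of them higher in spermatids (Med14, Med13, Med29, Med21, Med25 and Med10) and 10 lower (Med11, Med18, Med12l, Med17, Med23, Med22, Med4, Med6, Med16 and Cdk8).

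**Figure D1:**
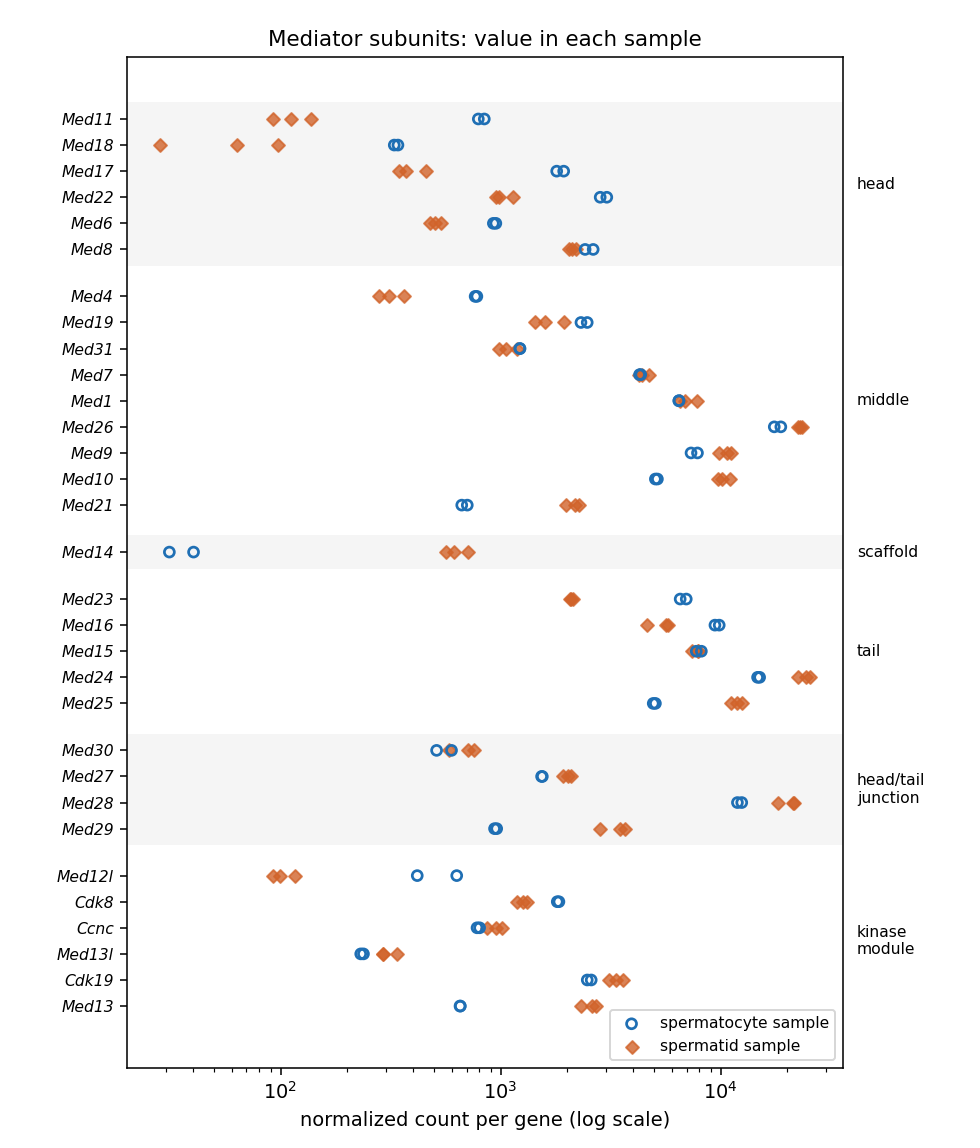
Normalized count (log axis) of each of the 31 Mediator genes in every sample, 2 spermatocyte samples (open circles) and 3 spermatid samples (filled diamonds), ordered by structural group. The open circles lie to the right of the diamonds for all 6 head genes, and to the left of them for the scaffold gene Med14, at 31.2 and 40.2 against 565 to 712.

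The head carried the most uniform difference: all 6 measured head genes were lower in spermatids, where 36.5% of all rows were, and 4 of the 6 by at least 2-fold. Their median log2 fold change was -1.89, with a range of -2.85 to -0.25. The seventh head gene, Med20, is in a joined row. Sertoli and Leydig markers fell in the same comparison.

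Med11, which pairs with Med22 in the head and contacts general factor TFIIH, had normalized counts of 791.7 and 842.8 in spermatocytes and 138.0, 92.2 and 111.1 in spermatids. Its spermatocyte mean was 7.18 times the spermatid mean (log2 fold change -2.85 ± 0.21 (SE), adjusted p = 2.6e-05). Its partner Med22 was at 2834 and 3037 in spermatocytes and at 953, 1140 and 984 in spermatids, 2.86 times higher in spermatocytes (log2 fold change -1.52 ± 0.12, adjusted p = 3.5e-05). Both genes of this pair thus fell, with no overlap between the cell types.

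Med18 belongs to the movable jaw of the head, where Med8 anchors it. It had 341.5 and 328.6 in spermatocytes and 97.7, 63.4 and 28.3 in spermatids (log2 fold change -2.56 ± 0.49, adjusted p = 0.0025). The spermatid samples differed from each other by more than those of any other head gene, with replicate 1 highest, yet all lay below both spermatocyte samples. Med17, the central subunit around which the head folds, was at 1798 and 1934 in spermatocytes and 372, 458 and 344 in spermatids, a 4.77-fold difference (log2 fold change -2.26 ± 0.16, adjusted p = 1.9e-05). Med6, which lies between head and middle, fell from means of 939 ± 17.3 (SD, n = 2) to 505 ± 29.5 (SD, n = 3), a log2 fold change of -0.90 ± 0.12. Med8 was nearly level, at 2527 ± 151 and 2120 ± 75.4 (log2 fold change -0.25 ± 0.10, adjusted p = 0.048). The Med8 call was lost under 5 of the alternatives, among them leaving out either spermatocyte sample (adjusted p = 0.25 and 0.084).

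**Figure D2:**
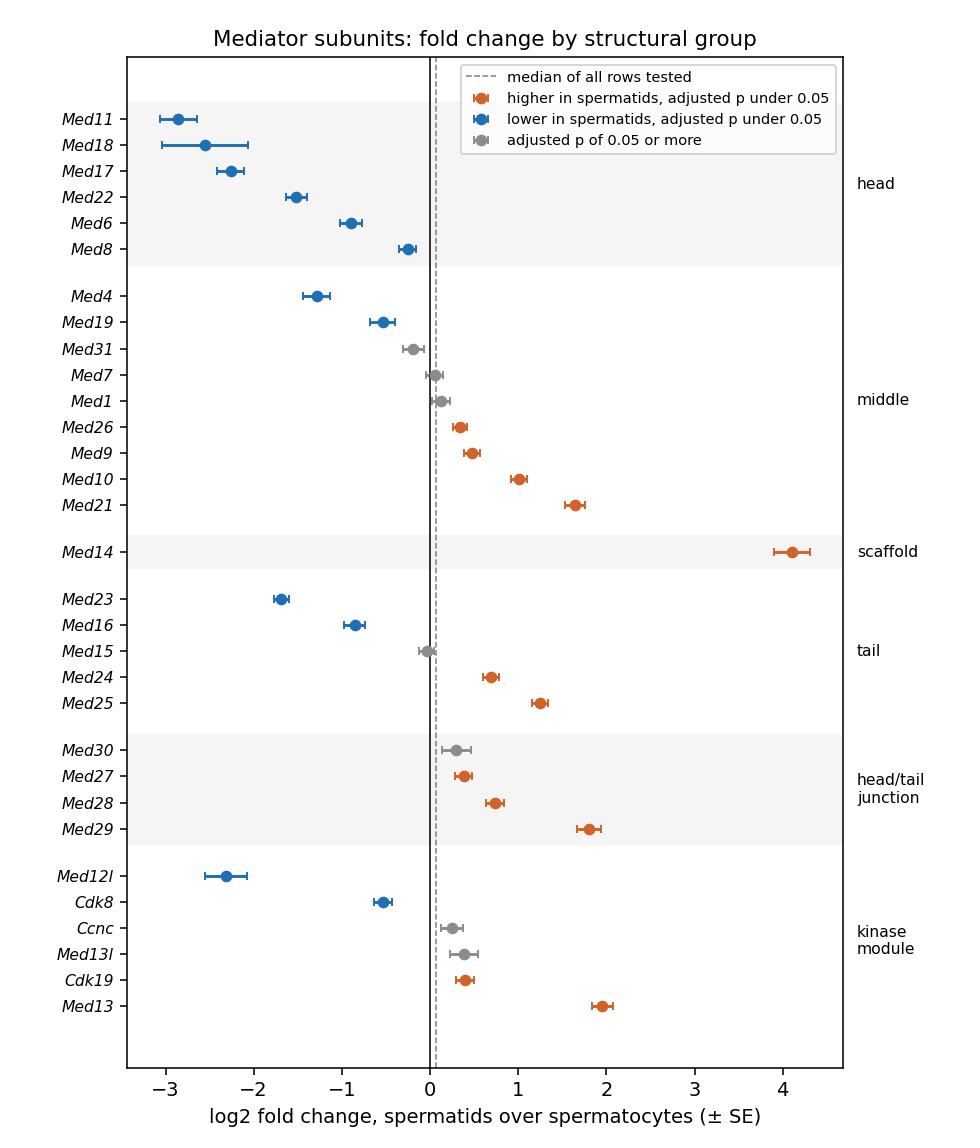
Log2 fold change of spermatids over spermatocytes for each Mediator gene by structural group. Points are limma estimates with SE bars, coloured by call, and the dashed line marks the median of all rows tested (0.07). All 6 head genes lie to the left of 0, and Med14 lies farthest to the right at 4.11.

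The scaffold gene moved opposite to the head. Med14 is X-linked (chrX:12675371-12762073, mm10) and was the member with the largest rise. It had normalized counts of 31.2 and 40.2 in spermatocytes and 712, 613 and 565 in spermatids. Every spermatid sample was thus more than an order of magnitude above both spermatocyte samples, and the means differed 17.6-fold (log2 fold change 4.11 ± 0.20, adjusted p = 4.3e-06). The X chromosome is silenced in pachytene spermatocytes. Of 828 X-linked rows tested, 63.0% were higher in spermatids and 34.5% were at least 16-fold higher, against 14.4% of all rows at that fold. The spermatocyte level of Med14 was 5.67% of its spermatid level, beside 1.27% to 2.0% for the spermatid markers. The part of X silencing, or of cells of the other type in a sample, in the Med14 values was not tested. The other X-linked Mediator gene, Med12, is in the joined row with Nlgn3, a gene of a synaptic adhesion protein. That row had 135.7 and 153.5 in spermatocytes and 2394, 3288 and 2458 in spermatids, and the reads of the genes cannot be separated.

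Med27 to Med30, where the head meets the tail, leaned to spermatids: 3 of 4 were higher and none was lower, against 40.6% and 36.5% of all rows. Med29 had 938 and 960 in spermatocytes and 2819, 3669 and 3483 in spermatids, 3.50-fold higher (log2 fold change 1.80 ± 0.14, adjusted p = 2.9e-05). Med28, also known as a binding partner of cytoskeletal proteins, had 12464 and 11913 against 18233, 21527 and 21214 (log2 fold change 0.73 ± 0.10, adjusted p = 0.00055). In both genes every spermatid sample exceeded every spermatocyte sample. Med27 rose less, from 1541 ± 8.47 (SD, n = 2) to 2010 ± 74.3 (SD, n = 3), a log2 fold change of 0.38 ± 0.10, and its call was lost without spermatocyte replicate 1 (adjusted p = 0.057). Med30 was at 555 ± 61.1 and 685 ± 92.4 with overlapping samples (adjusted p = 0.13), and passed without spermatid replicate 1 (adjusted p = 0.028). Only Med29 kept its call with equal library totals and with quantile normalization, and the values of Med27 and Med30 were below 0 under both.

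Of the 9 genes of the middle, 4 were higher (44.4%), 2 were lower (22.2%) and 3 did not pass, against 40.6% and 36.5% of all rows. Med21, which forms the hinge of the middle with Med7, had 666 and 705 in spermatocytes and 2267, 2185 and 1971 in spermatids (log2 fold change 1.64 ± 0.11, adjusted p = 1.8e-05). Med7 itself was level, at 4304 ± 38.1 (SD, n = 2) and 4463 ± 260 (SD, n = 3) with overlapping samples (log2 fold change 0.05 ± 0.09, adjusted p = 0.63). The difference between Med21 and Med7 was not tested. Med7 fell when library totals were set equal (log2 fold change -0.60) or quantiles were matched (-0.58), and its row overlaps an unnamed row of mean 1746.

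Med10 had 5156 and 5048 in spermatocytes and 10150, 10983 and 9685 in spermatids, 2.01-fold higher (log2 fold change 1.01 ± 0.09, adjusted p = 6.8e-05). Med4, another core gene of the middle, went the other way, with 766 and 780 in spermatocytes and 281, 310 and 363 in spermatids (log2 fold change -1.29 ± 0.16, adjusted p = 0.00028). Neither gene had any overlap between the cell types. Med26, through which elongation factors are recruited, had 18761 and 17515 in spermatocytes and 22839, 22529 and 23419 in spermatids (log2 fold change 0.34 ± 0.08, adjusted p = 0.0075), but it fell when library totals were set equal (-0.31) or quantiles were matched (-0.42). The Med26 call was also lost without spermatocyte replicate 2 (adjusted p = 0.079) and without an eBayes trend (adjusted p = 0.061). Med9 rose from 7587 ± 361 to 10539 ± 634 (log2 fold change 0.47 ± 0.09), a direction that turned under the same 2 scalings. Med19, which links Mediator to the repressor REST, fell from 2396 ± 111 to 1661 ± 261 (log2 fold change -0.54 ± 0.15, adjusted p = 0.012). Its call was lost without spermatocyte replicate 1 (adjusted p = 0.085) or 2 (adjusted p = 0.055), and its row overlaps that of Zdhhc5, whose mean was 48431. Med1, the docking subunit for nuclear receptors, was at 6458 ± 8.34 and 7049 ± 663 (adjusted p = 0.31), and fell under the same 2 scalings (-0.52 and -0.58). Med31, the most conserved subunit of the middle, was at 1223 ± 1.29 and 1074 ± 102 (adjusted p = 0.19); it was called lower under those scalings and without spermatid replicate 1 (adjusted p = 0.045).

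Of the 5 tail subunits, several of which bind activators directly, 2 were higher (40.0%), 2 were lower (40.0%) and 1 did not pass, shares near the 40.6% and 36.5% of all rows. Med23, the target of the growth-factor-responsive factor Elk1, had 6544 and 6973 in spermatocytes and 2133, 2094 and 2069 in spermatids, 3.22-fold lower in spermatids (log2 fold change -1.69 ± 0.09, adjusted p = 5.4e-06). Med16 fell from 9630 ± 304 (SD, n = 2) to 5353 ± 643 (SD, n = 3), a log2 fold change of -0.85 ± 0.12, with a row that overlaps that of Tmem259, of mean 8556. Med25, contacted by the stress factor Atf6, had 4937 and 5050 in spermatocytes and 11154, 12476 and 11874 in spermatids (log2 fold change 1.24 ± 0.09, adjusted p = 2.2e-05). Thus 2 activator-binding subunits differed in opposite directions, each with no overlap between the cell types. Med24, which lies next to Med16 and Med23 in the complex, rose from 14867 ± 226 to 24110 ± 1593 (log2 fold change 0.70 ± 0.09), but not with equal totals (adjusted p = 0.76) or quantile normalization (adjusted p = 0.69). Med15, the docking subunit for the sterol factors, was level at 7956 ± 299 and 7745 ± 271 (adjusted p = 0.69) as deposited and fell under those 2 scalings.

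Of the 6 measured genes of the kinase module, 2 were higher (33.3%), 2 were lower (33.3%) and 2 did not pass, shares close to the 40.6% and 36.5% of all rows. Med13, which tethers the module to the core complex, had 656 and 654 in spermatocytes and 2614, 2307 and 2722 in spermatids, 3.89-fold higher (log2 fold change 1.95 ± 0.11, adjusted p = 8.8e-06). Its paralog Med13l had 238 and 231 against 293, 338 and 291, which do not overlap (log2 fold change 0.38 ± 0.16, adjusted p = 0.061) and turned direction with equal totals and quantile normalization. Per kilobase of transcript, Med13 stood at 2.43 and 2.49 times Med13l in the spermatocyte samples and at 7.86, 6.02 and 8.23 times in the spermatid samples. The log2 ratio differed by 1.57 between the cell types (1.30 ± 0.03 (SD, n = 2) and 2.87 ± 0.24 (SD, n = 3)), and a factor applied to a whole library leaves a ratio within a sample as it is. The exact two-sided permutation test gave p = 0.1, also after adjustment over the 2 pairs, the smallest that 2 against 3 samples allow.

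Of the alternative kinases, Cdk8 had 1809 and 1840 in spermatocytes and 1322, 1191 and 1264 in spermatids (log2 fold change -0.54 ± 0.10, adjusted p = 0.0026). Cdk19 had 2475 and 2580 against 3580, 3105 and 3337 (log2 fold change 0.40 ± 0.10, adjusted p = 0.0092). The row of Cdk19 overlaps that of 4930520K10Rik, of mean 5938, its call was lost without spermatocyte replicate 1 (adjusted p = 0.069), and its direction turned with equal totals and quantile normalization. Within each sample the ratio of Cdk8 to Cdk19 per kilobase was 1.43 and 1.39 in spermatocytes and 0.722, 0.749 and 0.740 in spermatids. The order of the kinases thus differed between the cell types at the longest transcript lengths (exact two-sided permutation p = 0.1, again the smallest possible). With median transcript lengths the mean log2 ratios were 0.97 and 0.03, so the order in spermatids depends on the length used. The difference between the cell types does not contain the annotated length, which was set the same in every sample. The choice of annotated length therefore does not bear on it. Which transcript lengths were present in each cell type was not measured. Ccnc, the cyclin shared by both kinases, was at 792 ± 15.1 (SD, n = 2) and 944 ± 77.8 (SD, n = 3) (adjusted p = 0.10), and passed without spermatid replicate 1 (adjusted p = 0.033).

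Med12l, the paralog of Med12, had 418 and 632 in spermatocytes and 116, 92.2 and 99.6 in spermatids (log2 fold change -2.32 ± 0.24, adjusted p = 0.00012). It was the member in which the spermatocyte samples differed most, by 0.60 on the log2 scale. Sertoli cell markers were also higher in spermatocyte replicate 2, for 9 of 10 genes, and their part in the level of Med12l was not tested. Without either spermatocyte sample the call of Med12l held.

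Levels of different genes were compared per kilobase of the longest annotated transcript. Med26 (6052 ± 294 normalized counts per kilobase (SD, n = 2)) and Med10 (5589 ± 83.6) were highest in spermatocytes, and Med10 (11252 ± 721 (SD, n = 3)) and Med26 (7651 ± 151) in spermatids. The lowest were Med14 (5.13 ± 0.91) and Med13l (25.2 ± 0.51) in spermatocytes, and Med12l (9.33 ± 1.12) and Med13l (33.1 ± 2.84) in spermatids. Med14, the backbone, rose from the last of 31 places to the 28th, and Med11 went from the 15th place to the 26th. With median transcript lengths Med28 was highest in both cell types, at 16605 and 27690, so the top of the order depends on the length used, whereas Med14 and Med12l stayed lowest. The middle part of the distribution was wider in spermatids: the ratio of the upper to the lower quartile over the 31 genes was 3.34 and 2.85 in the spermatocyte samples and 9.11, 9.25 and 8.70 in the spermatid samples. With median lengths these ratios were 6.30 and 5.79 against 10.98, 9.30 and 11.5. The SD of the log2 levels separated the cell types less, at 2.33 and 2.25 against 2.4, 2.50 and 2.57, and with median lengths its values overlapped (2.55 and 2.48 against 2.54, 2.66 and 2.71). They are descriptions, since subunits are not replicates.

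**Figure D3:**
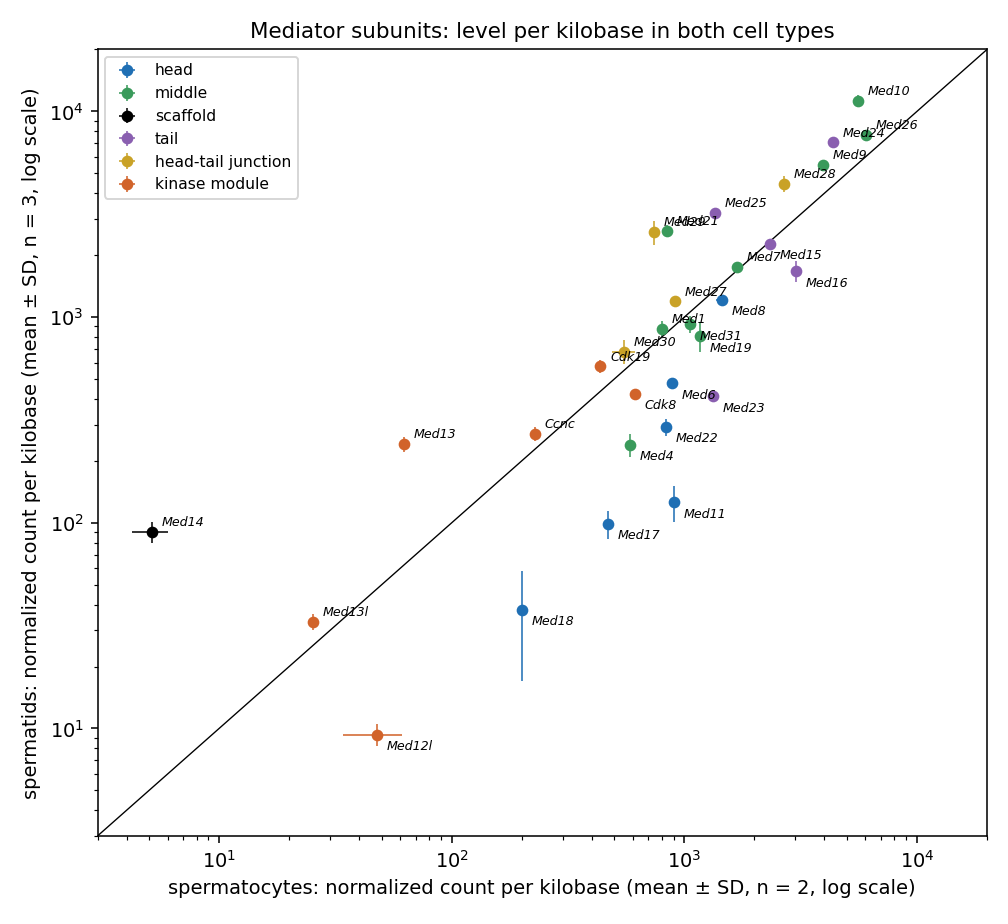
Level of each Mediator gene per kilobase of its longest transcript in spermatocytes (x axis, mean ± SD, n = 2) and spermatids (y axis, mean ± SD, n = 3), both log scales, coloured by structural group, with the line of equality. The head genes lie below the line and Med14 far above it, at 5.13 in spermatocytes and 90.5 in spermatids.

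Sequence upstream of the start site was compared for members that moved in opposite directions. RefSeq (GRCm38.p6) promoters were matched by symbol for 26 of the 31 members. Med7, Med10, Med15 and Med27 had 2 starts each, of which the first listed was used. The window of Med10 (chr13:69802120-69802369) ends well before its row, which starts at 69809873. Printed next are the 3 genes with the largest rise and the 3 with the largest fall among the called members whose upstream sequence lies outside their own row for at least 100 bases. Each runs 5′ to 3′ on the gene's strand, within 250 bases before the RefSeq start and outside the gene's row in the table. Capitals mark the motifs searched on both strands: the core of the cyclic-AMP response element (CRE), TGACG, and the other motifs named here. The ETS family motif was searched as CCGGAAG. The motif of the factor NRF1 is given by its name alone. The box bound by the factor NF-Y was searched as CCAAT. The GC box bound by factors of the Sp family was searched as GGGCGG. The TATA box of core promoters was searched as TATAAA. The motif of the factor YY1 was searched as AAGATGGCG. The regions are chrX:12762074-12762223 for Med14, chr11:86357597-86357846 for Med13, chr7:28392695-28392940 for Med29, chr4:132463924-132464171 for Med18 and chr9:15279908-15280156 for Med17, all on the minus strand, and chr11:70451668-70451912 for Med11 on the plus strand.
Med14: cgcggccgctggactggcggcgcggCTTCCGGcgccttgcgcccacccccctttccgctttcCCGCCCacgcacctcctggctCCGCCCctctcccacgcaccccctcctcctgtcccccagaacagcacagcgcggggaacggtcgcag
Med13: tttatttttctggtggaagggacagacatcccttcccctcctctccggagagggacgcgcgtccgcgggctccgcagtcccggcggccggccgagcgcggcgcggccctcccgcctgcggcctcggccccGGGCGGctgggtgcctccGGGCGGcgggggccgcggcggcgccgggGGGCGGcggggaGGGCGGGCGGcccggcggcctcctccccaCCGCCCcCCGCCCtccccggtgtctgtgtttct
Med29: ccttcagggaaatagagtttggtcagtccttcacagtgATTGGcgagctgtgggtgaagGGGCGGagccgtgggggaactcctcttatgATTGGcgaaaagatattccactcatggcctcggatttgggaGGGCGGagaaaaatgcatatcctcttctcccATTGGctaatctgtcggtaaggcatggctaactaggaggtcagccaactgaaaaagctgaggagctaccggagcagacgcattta
Med11: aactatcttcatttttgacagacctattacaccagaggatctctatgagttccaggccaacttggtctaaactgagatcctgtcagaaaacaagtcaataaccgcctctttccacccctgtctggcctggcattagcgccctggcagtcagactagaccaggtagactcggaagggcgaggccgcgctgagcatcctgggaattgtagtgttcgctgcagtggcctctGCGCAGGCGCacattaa
Med18: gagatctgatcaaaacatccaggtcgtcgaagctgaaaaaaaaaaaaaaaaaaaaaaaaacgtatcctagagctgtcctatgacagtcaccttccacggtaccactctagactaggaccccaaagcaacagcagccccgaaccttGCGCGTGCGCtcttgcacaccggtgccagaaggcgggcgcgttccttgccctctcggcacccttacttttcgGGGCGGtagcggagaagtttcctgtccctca
Med17: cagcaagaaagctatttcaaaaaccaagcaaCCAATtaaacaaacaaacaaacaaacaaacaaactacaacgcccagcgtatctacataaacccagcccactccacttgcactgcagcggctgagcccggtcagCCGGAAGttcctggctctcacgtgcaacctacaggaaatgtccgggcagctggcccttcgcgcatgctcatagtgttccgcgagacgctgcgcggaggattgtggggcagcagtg

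The stretch before Med14 holds 1 ETS motif and 2 GC boxes, that before Med13 holds 7 GC boxes, one of them overlapping another, and that before Med29 holds 3 CCAAT boxes and 2 GC boxes. The head genes Med11 and Med18 each hold 1 NRF1 motif, with 1 GC box before Med18, and Med17 holds 1 ETS motif and 1 CCAAT box. Over the full 250-base windows of the 26 members, a GC box was found in 16, against 32.7% of all 32851 promoters in the table. A CCAAT box was in 11 (33.8% of all), the CRE core in 7 (17.8%), an ETS motif in 4 (6.91%), an NRF1 motif in 4 (3.74%), TATAAA in 3 (12.4%) and the YY1 motif in 0 (0.606%). The complete CRE, TGACGTCA, which contains the core on both strands, stood only before Med21 among the 26, and in 1.55% of all promoters. Of the 10 members with a promoter that were higher in spermatids and the 10 that were lower, a GC box was in 6 and 6, a CCAAT box in 4 and 4, an NRF1 motif in 2 and 2, the CRE core in 3 and 2 and an ETS motif in 1 and 3. All 5 of these motifs were found in members of both directions. The CG dinucleotide occurred a median of 17 times per 250 bases before the members (range 3 to 51), against 6 for all promoters. The median GC content was 56.4% before the members and 52.4% for all promoters. The part of this base composition in the GC box counts was not tested. Such matches describe letters and not binding.

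Genes of the machinery that Mediator contacts were counted in the same way. The counts are read against 40.6% of rows higher and 36.5% lower. Of 12 RNA polymerase II subunit genes, 2 were higher in spermatids (Polr2f, log2 fold change 1.33, and Polr2i, 0.53) and 6 lower, led by Polr2l (-2.04) and Polr2b (-1.70), the second largest subunit. Of 10 genes of TFIIH, the factor that opens the promoter and phosphorylates the polymerase, 9 were lower, led by the helicase gene Ercc2 (-2.51) and by Gtf2h5 (-2.05), and only Ercc3 was higher (0.63). The polymerase and TFIIH lists had medians of -0.69 and -0.98, against -1.89 for the head. The medians of the other lists were above 0. They were 0.37 for TFIID and the TBP family and 0.30 for TFIIA, TFIIB, TFIIE and TFIIF. The elongation kinases and super elongation complex had 0.45, and the factors known to bind Mediator had 0.58. A link between the head and any of these lists was not tested. Of 16 tested genes of TFIID and the TBP family, 11 were higher and 3 lower: the X-linked Taf9b (5.31) and Taf7l (4.27) rose most, and Taf2 (-2.70) and Taf8 (-1.96) fell most. In TFIIA, TFIIB, TFIIE and TFIIF 4 of 8 were higher, led by the germ cell paralog Gtf2a1l (1.16) and by Gtf2a2 (0.91), and 2 were lower, Gtf2e1 (-2.62) and Gtf2b (-0.47).

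Of 17 genes of the elongation kinases and the super elongation complex, which Med26 helps to recruit, 9 were higher and 5 lower. Ell2 rose from 188 ± 57.9 (SD, n = 2) to 9731 ± 1675 (SD, n = 3) and Ell3 from 22.2 ± 8.49 to 555 ± 84.9, whereas Hexim1, an inhibitor of the elongation kinase, and Cdk9, the kinase itself, fell by 2.46 and 2.26 on the log2 scale. Of 12 factors known to bind Mediator, most but not all of them activators, 6 were higher, led by the receptor genes Thra (log2 fold change 2.48) and Esr1 (2.05). Lower were 2, Vdr (-5.15), which had 174.5 and 168.3 in spermatocytes and 2.10 to 7.93 in spermatids, and the X-linked Gata1 (-1.76). Vdr and Gata1 are known in Sertoli cells, whose markers fell in the same comparison, and the part of those cells was not tested. With equal library totals these counts were 1 higher and 10 lower for the polymerase, 0 and 9 for TFIIH and 4 and 8 for TFIID. The shares of all rows tested under that scaling were 30.5% higher and 49.4% lower.

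**Figure D4:**
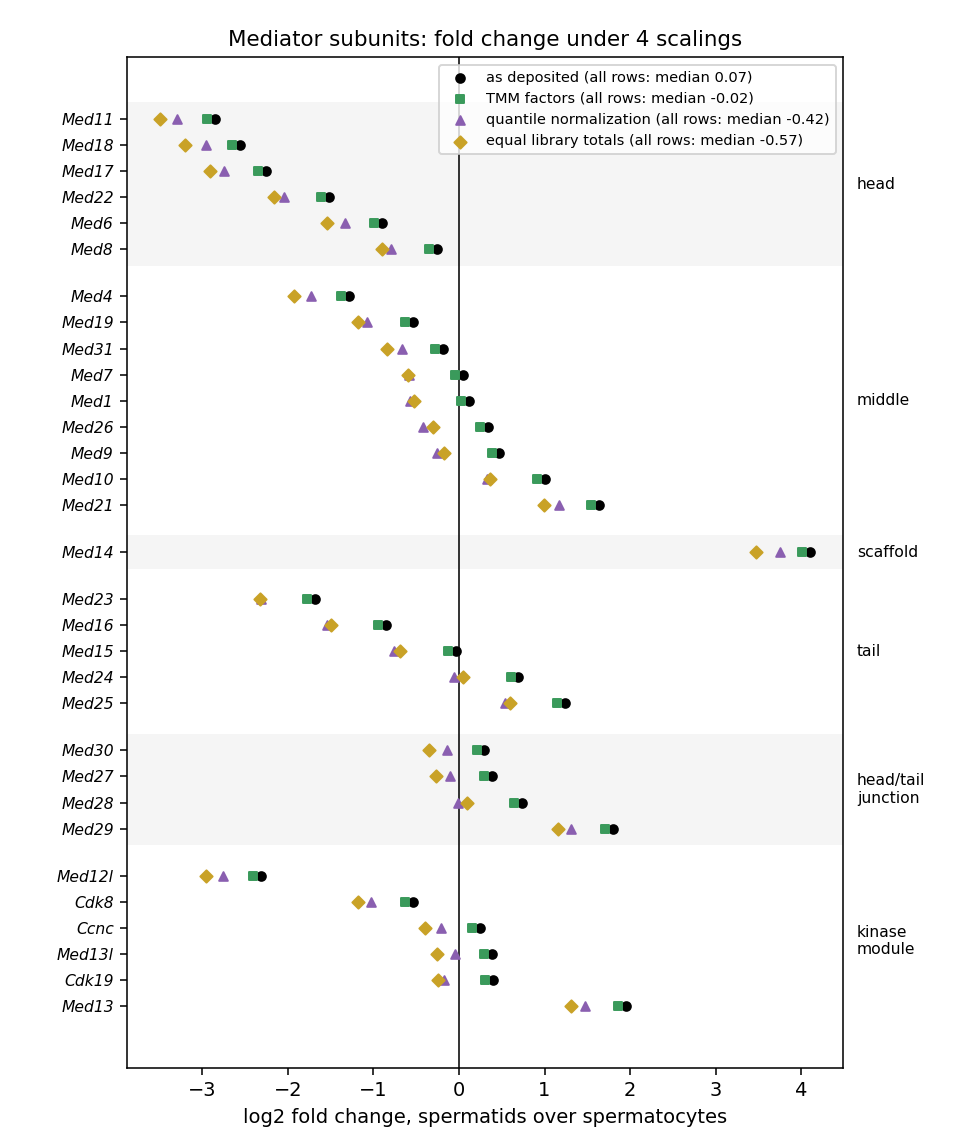
Log2 fold change of each Mediator gene under 4 scalings: as deposited, TMM factors, quantile normalization and equal library totals. The legend gives the median of all rows under each (0.07, -0.02, -0.42 and -0.57). The head genes lie below 0 and Med14 above 0 under all 4, while genes near 0 as deposited, such as Med7 and Med1, lie below 0 under the last 2.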

How the data were processed

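Polyadenylated RNA of 2 spermatocyte and 3 spermatid samples was sequenced from stranded libraries, per the labels' protocols. The deposited table gives 1 normalized signal per gene and library, which the authors scaled with DESeq, per the submitters' processing notes. The notes also list STAR 2.4.0, SAMtools, Picard, FastQC and the mm10 build without saying what each did. How reads were counted, whether by strand and with which rule for shared reads, is not given in the sources used here. Overlapping genes may therefore share reads; 18 of the 31 members overlap another row.

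Values in every column were whole multiples of its smallest value within 0.001 (100% of values). Rows with a mean of at least 10 were tested with limma 3.58.1 (R 4.3.3) on log2(value + 1), using eBayes with a trend in the variance, and p-values were adjusted by Benjamini-Hochberg over all 28370 rows. The fold scale understates changes of low genes; folds written as times are ratios of group means. The step was run on simulated counts in which few rows changed, evenly up and down. Most rows were called in these data, so the simulation does not bear on the scaling. Replicate numbers follow accession order and do not pair samples. TMM factors came from edgeR 4.0.16. Lengths came from protein-coding transcripts of GENCODE vM21, matched by symbol for all 31 members. Ratios were tested with scipy 1.17.1 and plots drawn with matplotlib 3.10.9.

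Members, lists and named genes were chosen with earlier results of these data known. Named with every sample value are called members with at least 2-fold change, the 2 called members of each structural group with the largest change, the 2 highest and the 2 lowest per kilobase, and both genes of each paralog pair; in the related lists, the 2 largest called changes in each direction. The Med12 pair was not computed because Med12 is in a joined row. Of the related lists, Taf4 and Taf10 matched no row of their own, and Ccnt1 and Rest matched 2 rows each, and were left out. Both Ccnt1 rows were higher in spermatids (log2 fold change 0.51 and 3.02), and both Rest rows were lower (-2.20 and -3.16). Of the printed windows, orientation was checked: the last 20 bases of the RefSeq promoter lay in a GENCODE transcript start for 25 of 26 members.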

Additional observations from a re-analysis of the deposited data

How the results depend on the processing

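Of 13 alternatives, other pseudocounts (0.5 and 8), no filter on low values and a mean of at least 100 changed no member's direction or call, and 16 members kept both under all 13. With equal library totals 6 members were higher, and the median log2 fold change of the members was -0.52; the values that turned were Cdk19 -0.25, Med7 -0.60, Med9 -0.17, Med1 -0.52, Med30 -0.35, Med27 -0.26, Ccnc -0.40, Med13l -0.26, Med26 -0.31, Polr2i -0.12 and Ercc3 -0.020. With quantile normalization 6 members were higher, the median was -0.58, and those that turned were Cdk19 -0.17, Med7 -0.58, Med9 -0.25, Med1 -0.58, Med24 -0.062, Med30 -0.14, Med27 -0.11, Ccnc -0.21, Med28 -0.016, Med13l -0.042, Med26 -0.42, Polr2i -0.029 and Ercc3 -0.035. With TMM factors the median was 0.029 and Med7 was at -0.042. Equal totals and TMM factors set the zero point elsewhere, as the medians of all rows show. Quantile normalization moved genes by unequal amounts: Med24 went from 0.70 to -0.062 and Med14 from 4.11 to 3.76. Members called higher and lower with equal totals and with quantile normalization in the related lists were 1 and 10 under both for RNA polymerase II. They were 4 and 8 against 7 and 8 for TFIID, and 2 and 4 against 1 and 4 for TFIIA, TFIIB, TFIIE and TFIIF. TFIIH had 0 higher under both, the elongation list had 8 and 9 lower, and the factors known to bind Mediator had 3 higher under both. Of those factors, 1 was lower with a mean of at least 100. All rows tested were 30.5% higher and 49.4% lower with equal totals, and 32.9% and 46.9% with quantile normalization. Without an eBayes trend only the Med8 (adjusted p = 0.14) and Med26 (adjusted p = 0.061) calls among the members were lost.

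Leaving out each sample in turn gave 10 to 14 members higher and 10 to 13 lower, with medians from 0.058 to 0.18. The called lower count of TFIIA, TFIIB, TFIIE and TFIIF ran from 1 to 2 (1 without spermatocyte replicate 1), the called higher count of RNA polymerase II from 1 to 2 (1 without spermatocyte replicate 2) and that of TFIID from 7 to 11 (7 without spermatocyte replicate 2). Where 1 spermatocyte sample remains, it is assumed to vary like the other group. The paralog ratios kept their direction without each sample, an alternative added after the data were seen. The count tests with edgeR and DESeq2 were not run, because the smallest value of spermatid replicate 2 was not accepted as the value of 1 read. Its values were whole multiples of that smallest value, as in the other samples. No paired analysis was possible because the labels give the samples no shared replicate numbers. At these depths every member was measured in all 5 samples, at 28.3 or more. With 2 and 3 samples the median SE of the log2 fold change was 0.11 for members and 0.27 for all rows.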
